A study of Homo sapiens with 9 samples.

Results

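The genes described here are 5 NKG2D ligands, MICA, MICB, ULBP1, ULBP2 and ULBP3, read from TE13 cells after PARylator knockdown. They were chosen by gene symbol, taking for each symbol the row with the highest mean FPKM (the count of a gene scaled by its exonic length and by the library total), and make up 5 of the 60605 rows of the deposited table. TE13 is an established cell line of esophageal squamous cell carcinoma (ESCC), and PARylator is the long noncoding RNA LINC00885. To ask how the transcriptome changed upon knockdown, poly(A)+ RNA was sequenced from cells that had received a control siRNA or an siRNA against PARylator, either siRNA.1 or siRNA.2, in 9 libraries of which 3 belong to each group. The series states no other treatment, all groups are the same cell line, and a single control siRNA served both comparisons, which therefore share their 3 control libraries. The siRNAs are numbered as in the titles of the libraries, which are called biological replicates without a statement of whether they came from separate cultures, so p-values measure the spread between these libraries.

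NKG2D is an activating receptor of natural killer (NK) cells and of CD8+ T cells. Its ligands are distant relatives of MHC class I molecules that most healthy cells display sparingly and that stressed, infected or transformed cells display more of, which exposes such cells to killing. MICA and MICB span the membrane, whereas the ULBP proteins are mostly held by a lipid anchor, and tumour cells can also shed either kind from their surface by proteolysis, so that transcript levels need not track surface levels.

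All members lie on chromosome 6 in GRCh38, by the coordinates of the deposited table. MICA (ENSG00000204520) spans chr6:31399784-31415315 and MICB (ENSG00000204516) chr6:31494881-31511124, both on the plus strand within the MHC region. On the long arm, ULBP2 (ENSG00000131015) spans chr6:149942014-149949235 and ULBP1 (ENSG00000111981) chr6:149963943-149973715 on the plus strand, and ULBP3 (ENSG00000131019) spans chr6:150061053-150069121 on the minus strand. By the GENCODE canonical transcripts, MICA and MICB have 6 exons each and the 3 ULBP genes 5 each. The coding sequences of MICA and MICB were 92.5% identical over 990 aligned bases, whereas those of ULBP1 and ULBP2 were 81.3% identical over 726 aligned bases and those of ULBP2 and ULBP3 78.7% over 718.

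The 250 bases before the RefSeq transcription start (GRCh38.p14, all plus strand, 5′ to 3′) are shown for a closely related pair, MICA and MICB, and for a neighbouring pair, ULBP1 and ULBP2. The members of each pair did not receive the same calls below, although whether MICA and MICB differed in their change was not tested. Capitals mark matches to the motifs searched on either strand, which were a GC box (GGGCGG), a heat shock element (GAANNTTC), an ATF4 site (TGANGNAA), an E2F site (TTTNGCGC) and a CCAAT box, searched by these letters. The windows are chr6:31403345-31403594 for MICA, chr6:31497895-31498144 for MICB, chr6:149963693-149963942 for ULBP1 and chr6:149941764-149942013 for ULBP2.
MICA: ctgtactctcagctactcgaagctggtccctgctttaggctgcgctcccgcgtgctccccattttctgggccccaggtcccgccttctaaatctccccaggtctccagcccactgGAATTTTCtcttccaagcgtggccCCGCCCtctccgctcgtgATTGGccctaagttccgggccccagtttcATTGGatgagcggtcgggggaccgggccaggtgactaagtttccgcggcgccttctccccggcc
MICB: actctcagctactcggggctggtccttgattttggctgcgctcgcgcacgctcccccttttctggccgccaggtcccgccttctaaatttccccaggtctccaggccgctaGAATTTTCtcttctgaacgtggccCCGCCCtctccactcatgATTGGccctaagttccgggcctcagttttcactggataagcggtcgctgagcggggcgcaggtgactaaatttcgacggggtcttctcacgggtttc
ULBP1: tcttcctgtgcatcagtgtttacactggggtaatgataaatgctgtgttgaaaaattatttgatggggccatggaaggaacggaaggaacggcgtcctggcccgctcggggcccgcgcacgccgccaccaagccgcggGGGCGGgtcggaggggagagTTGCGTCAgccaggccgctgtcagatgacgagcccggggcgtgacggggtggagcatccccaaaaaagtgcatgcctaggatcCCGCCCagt
ULBP2: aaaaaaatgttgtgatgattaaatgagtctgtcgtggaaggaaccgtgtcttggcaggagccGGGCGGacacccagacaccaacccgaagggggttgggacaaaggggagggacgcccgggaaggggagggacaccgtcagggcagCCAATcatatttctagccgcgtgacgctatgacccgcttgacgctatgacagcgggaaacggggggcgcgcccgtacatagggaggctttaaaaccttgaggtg

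All 5 members had a window in the RefSeq promoter table. The MICA and MICB windows were 85.4% identical over 246 aligned bases, and each held 1 heat shock element with the same letters, GAATTTTC, 135 bases before the start in MICA and 139 in MICB. Of 35116 promoter windows of the same length, 5.78% held a heat shock element. The ULBP1 window held the only ATF4 site among the 5 members, TTGCGTCA on the strand shown and 92 bases before the start, a motif present in 12.65% of promoters. ULBP2 had 1 GC box and 1 CCAAT box, motifs present in 42.64% and 32.01% of promoters, and ULBP3, whose window was 72.0% G and C, had 6 GC boxes. None of the 5 windows held the E2F site, which 1.51% of promoters did. These are matches of letters and not measured binding. The windows of MICA and MICB begin inside the deposited gene spans, whose models start further upstream.

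Library totals were between 15337917 and 17899074 counts on genes with control siRNA, between 15374616 and 17762752 with siRNA.1, and between 19213164 and 22559998 with siRNA.2. The targeted LINC00885 was close to the limit of detection, at 6, 7 and 12 counts under control siRNA, 4, 5 and 2 under siRNA.1, and 2, 0 and 4 under siRNA.2, and its decrease did not pass the test with either siRNA (edgeR adjusted p = 0.376 and 0.0659). The paper reported the knockdown in TE13 cells by qPCR, which is not part of these data. The epithelial identity of the cells was borne out by 10 of 10 squamous markers with a mean of at least 1 FPKM, whereas 13 NK and T cell markers summed to between 0.6 and 1.01 FPKM in any library, 4 of them without a count in any. Mitochondrial genes took 7.46% to 7.66% of counts in the control libraries, 4.99% to 5.06% under siRNA.1 and 5.54% to 5.56% with siRNA.2, and the summed level of the squamous markers was 719 to 733 FPKM, 641 to 665 FPKM and 629 to 649 FPKM. Of these 10 markers, 3 were higher and 5 lower with each siRNA, among them KRT5, a basal keratin, which fell by 1.86 and 1.36 on the log2 scale, and SOX2, a squamous lineage factor, which fell by 1.85 and 0.87, while KRT6A rose by 0.34 and 0.57. A list of 10 markers of other non-epithelial cells summed to between 2.38 and 3.2 FPKM in any library. Of the 5 tested, 2 were higher and 2 lower with each siRNA, namely the leukocyte marker PTPRC (2.15 and 2.12 on the log2 scale, both lost with limma) and either CD68 (1.35 with siRNA.1) or CD14 (2.59 with siRNA.2), and, lower with both, COL1A1 (-0.55 and -0.52) and VWF (-2.15 and -2.01). The call of CD68 was lost without control replicate 1 (1.255) or 3 (1.076) or siRNA.1 replicate 1 (1.196) or 2 (1.324), and that of CD14 without control replicate 1 (2.469) or 2 (2.458) or siRNA.2 replicate 1 (2.264) or 2 (2.45). Mitochondrial share and markers of both kinds therefore moved with the groups, and their part in the results below was not tested.

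PARylator knockdown was accompanied by unequal changes within the ligand family. MICA and ULBP1 transcripts rose with both siRNAs, by 1.31-fold and 1.41-fold under siRNA.1 and by 1.36-fold and 1.46-fold with siRNA.2, while ULBP2 transcripts fell to 0.722 of the control level under siRNA.1 and to 0.787 with siRNA.2. MICB did not pass the test with either siRNA, and ULBP3 differed between the siRNAs but from control with neither. Thus with siRNA.1 2 of 5 members rose and 1 fell at an edgeR adjusted p under 0.05, where 15.0% of the 21395 rows tested were higher and 15.2% lower. With siRNA.2 the counts were again 2 higher and 1 lower, against 15.8% and 15.1% of all rows. All 5 members passed the filter of a mean of 0.1 FPKM, and their median log2 fold change was 0.11 under siRNA.1 and 0.20 with siRNA.2, beside 0.00 for all rows tested. In these bulk libraries, a change in the number of cells that carry a transcript and a change in transcript per cell cannot be told apart.

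**Figure D1:**
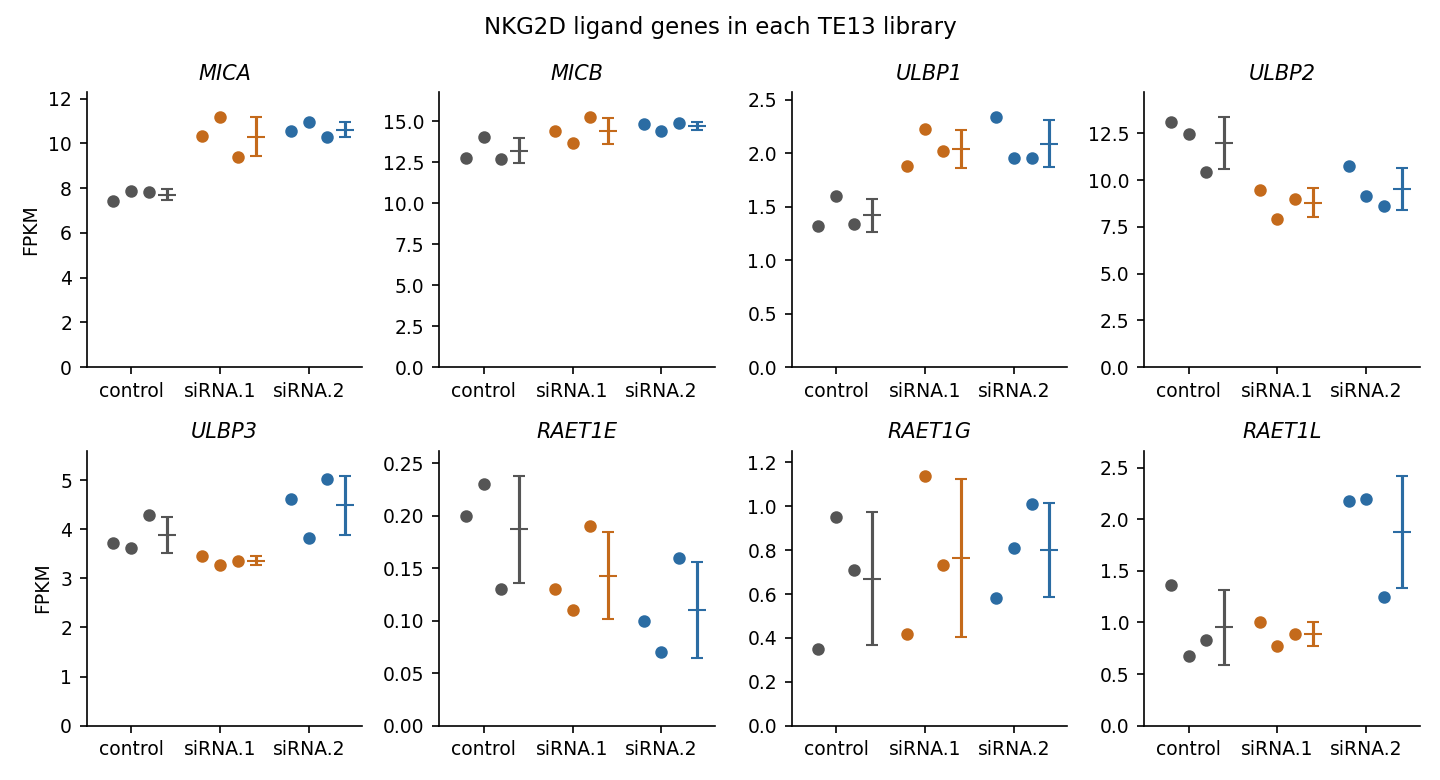
FPKM (vertical axis, linear, from 0, scaled per gene) of the 5 members and of the 3 further ligand genes RAET1E, RAET1G and RAET1L in each TE13 library (points), with the mean and SD of the 3 libraries of a group beside them. The control points of MICA lie between 7.42 and 7.85 FPKM, below the siRNA points at 9.41 to 11.16 FPKM, whereas the control points of ULBP2 lie at 10.46 to 13.09 FPKM.

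MICA, the ligand best known for induction by heat shock and other cell stress, was measured at 7.42, 7.85 and 7.83 FPKM in the control libraries. It stood at 10.32, 11.16 and 9.41 FPKM under siRNA.1 and at 10.56, 10.93 and 10.26 FPKM with siRNA.2. Every siRNA library was above every control library, and both siRNA groups overlapped. The counts behind these values were between 438 and 540 in the control libraries, between 633 and 706 under siRNA.1 and between 805 and 891 with siRNA.2. On the log2 scale the change was 0.39 for siRNA.1 (standard error 0.083, edgeR adjusted p = 2.09e-05) and 0.45 for siRNA.2 (standard error 0.082, edgeR adjusted p = 4.52e-07). Both calls held under all 18 alternatives tried.

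MICB, the close relative of MICA that also binds NKG2D directly, was measured at 12.75, 14.03 and 12.72 FPKM in the control libraries. With siRNA.1 it stood at 14.41, 13.65 and 15.25 FPKM, and with siRNA.2 at 14.8, 14.42 and 14.91 FPKM. The siRNA.1 libraries overlapped with the control libraries and the siRNA.2 libraries lay just above them. On the log2 scale the change was 0.11 for siRNA.1 (95% confidence interval -0.05 to 0.26, edgeR adjusted p = 0.344) and 0.15 for siRNA.2 (95% confidence interval -0.004 to 0.30, edgeR adjusted p = 0.145). An increase of MICB by up to 1.20-fold under siRNA.1 and up to 1.23-fold with siRNA.2 lay within these intervals. Whether MICA and MICB differed in their change was not tested. MICB overlaps a divergent transcript, MICB-DT, on the opposite strand, which had 47 counts over all 9 libraries, and MICA overlaps a Y RNA gene on the opposite strand and an unnamed gene on its own strand, with 10 and 8 counts in all. Whether counting used strand is not given in the sources used here.

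ULBP1, a ligand whose transcription is known to be driven by ATF4, was the least abundant member. Its level was 1.32, 1.6 and 1.34 FPKM in the control libraries, 1.88, 2.23 and 2.02 FPKM with siRNA.1, and 2.34, 1.96 and 1.96 FPKM with siRNA.2, so that every siRNA library was above every control library. The counts were low, with 65, 80 and 77 in the control libraries, 107, 110 and 113 with siRNA.1, and 149, 121 and 142 with siRNA.2. On the log2 scale the change was 0.49 for siRNA.1 (standard error 0.186, edgeR adjusted p = 0.0291) and 0.55 for siRNA.2 (standard error 0.183, edgeR adjusted p = 0.0117). In this fit its increase was the largest of the 5 members with each siRNA, but by less than its standard error over that of MICA. With limma the order depended on the constant added. On log2(FPKM + 1) MICA rose more (0.374 against 0.331 with siRNA.1, 0.413 against 0.351 with siRNA.2). On log2(FPKM + 0.1) ULBP1 rose more (0.497 against 0.412 with siRNA.1, 0.525 against 0.454 with siRNA.2). With siRNA.1 the call was lost without control replicate 1 (0.448), control replicate 3 (0.454), siRNA.1 replicate 2 (0.436) or siRNA.1 replicate 3 (0.50), with an edgeR adjusted p of up to 0.105. With siRNA.2 it was lost without control replicate 3 (0.505) or siRNA.2 replicate 1 (0.468), with an edgeR adjusted p of up to 0.0726.

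ULBP2, a ligand found in soluble form in the serum of patients with several cancers, went the other way. It was measured at 13.09, 12.49 and 10.46 FPKM in the control libraries, at 9.45, 7.94 and 9.01 FPKM with siRNA.1, and at 10.78, 9.16 and 8.63 FPKM with siRNA.2. All siRNA.1 libraries were below all control libraries, whereas the highest siRNA.2 library exceeded the lowest control library. On the log2 scale the change was -0.47 for siRNA.1 (standard error 0.125, edgeR adjusted p = 0.00101) and -0.35 for siRNA.2 (standard error 0.122, edgeR adjusted p = 0.018). The decrease with siRNA.1 held under all 18 alternatives. That with siRNA.2 was lost without control replicate 1 (-0.279), control replicate 2 (-0.317), siRNA.2 replicate 2 (-0.326) or siRNA.2 replicate 3 (-0.283), with an edgeR adjusted p of up to 0.124, and with limma (-0.332 and -0.306, adjusted p = 0.0554 and 0.0584).

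ULBP2 is also the member whose reads are hardest to assign. Its coding sequence was 97.6% identical to that of RAET1L and 95% identical to that of RAET1G, and 12.06% of the 100-base windows of its canonical transcript occurred unchanged in transcripts of these genes. For the other members, windows found in any other gene were counted, and none was shared with RAET1L or RAET1G. The share was 0 for MICA and MICB and 1.12% for ULBP1, in RAET1K. For ULBP3 it was 4.15%, in RAET1K and in genes outside the family. RAET1L stood at 0.77 to 1.0 FPKM with siRNA.1, within its control range of 0.67 to 1.36 FPKM, whereas with siRNA.2, where ULBP2 also fell, RAET1L rose by 0.96 on the log2 scale. The part of shared reads in these values was not tested. The read length and the treatment of reads with several matches are not given in the sources used here.

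ULBP3, another lipid-anchored ligand, was measured at 3.73, 3.61 and 4.29 FPKM in the control libraries, at 3.46, 3.28 and 3.35 FPKM with siRNA.1, and at 4.61, 3.83 and 5.02 FPKM with siRNA.2. All siRNA.1 libraries lay below the control libraries, and the siRNA.2 libraries overlapped with them. On the log2 scale the change against control was -0.23 for siRNA.1 (95% confidence interval -0.50 to 0.03, edgeR adjusted p = 0.19) and 0.20 for siRNA.2 (95% confidence interval -0.05 to 0.45, edgeR adjusted p = 0.257), so neither passed the test.

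The direct comparison of siRNA.2 with siRNA.1, in which the control libraries enter only through the scaling and spread of the common fit, called 1 of 5 members higher and 0 lower, where 6.1% of rows were higher and 6.06% lower. The called member was ULBP3, at 1.35 times its siRNA.1 level with siRNA.2 (log2 fold change 0.43, standard error 0.129, edgeR adjusted p = 0.00961), and all its siRNA.2 libraries were above all its siRNA.1 libraries. The call was lost without siRNA.2 replicate 3 (0.337, edgeR adjusted p = 0.161) and with limma (0.397 and 0.325, adjusted p = 0.0608 and 0.0667). The other members did not differ detectably, with log2 differences of 0.06 for MICA (95% confidence interval -0.10 to 0.21), 0.04 for MICB (-0.11 to 0.19), 0.05 for ULBP1 (-0.29 to 0.39) and 0.12 for ULBP2 (-0.12 to 0.37). For MICA the interval leaves room for a difference between the siRNAs of up to 1.16-fold, and for ULBP1 of up to 1.31-fold.

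**Figure D2:**
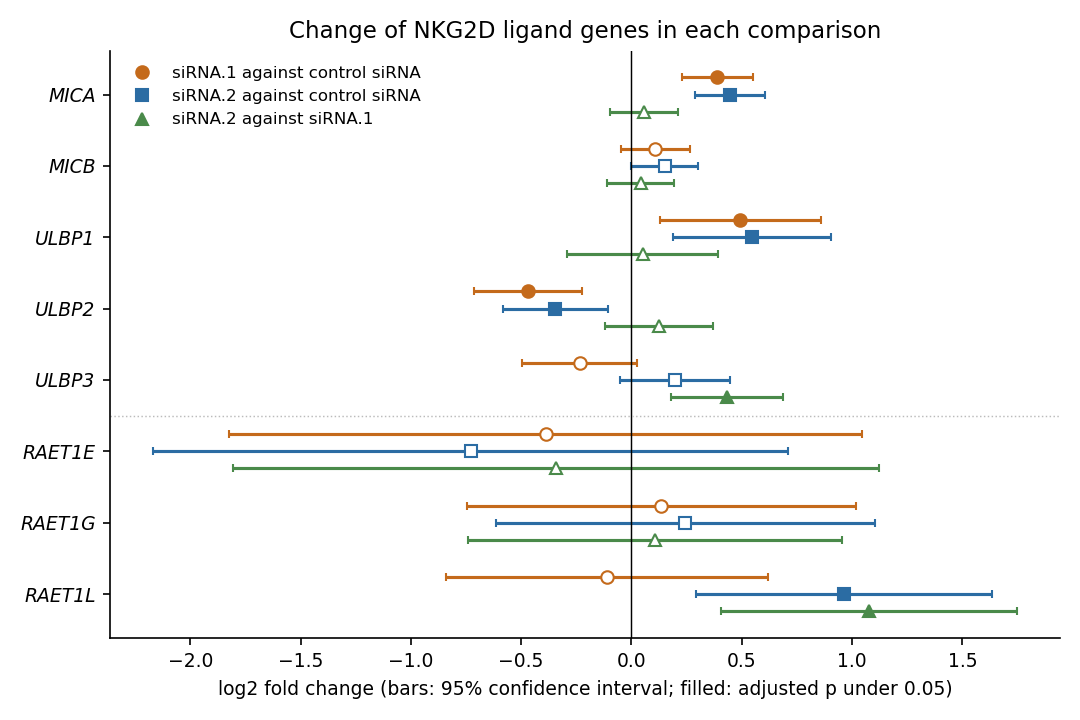
Log2 fold change (horizontal axis) of the 5 members, above the dotted line, and of RAET1E, RAET1G and RAET1L, below it, in the 3 comparisons, with 95% confidence intervals. Filled symbols have an edgeR adjusted p under 0.05: MICA and ULBP1 are to the right of 0 and ULBP2 to the left with both siRNAs, and ULBP3 and RAET1L differ between the siRNAs.

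A further 3 genes encode NKG2D ligands in humans, RAET1E, RAET1G and RAET1L, and they stood below the members in every group except that RAET1L came near ULBP1. RAET1E had between 4 and 11 counts in any library, and RAET1G between 8 and 34, and neither passed the test in any comparison. RAET1L counts were 28, 14 and 20 under control siRNA, 24, 16 and 21 under siRNA.1, and 58, 57 and 38 under siRNA.2, the 3 highest of the 9 being those of siRNA.2. On the log2 scale its change was -0.11 for siRNA.1 (edgeR adjusted p = 0.875), 0.96 for siRNA.2 (standard error 0.342, edgeR adjusted p = 0.0184) and 1.075 between the siRNAs (edgeR adjusted p = 0.0182). The increase against control was lost without control replicate 2 (0.769), control replicate 3 (0.872), siRNA.2 replicate 1 (0.855) or siRNA.2 replicate 2 (0.824). The difference between the siRNAs was lost without siRNA.1 replicate 2 (0.982), siRNA.1 replicate 3 (1.077), siRNA.2 replicate 1 (0.967) or siRNA.2 replicate 2 (0.936), with an edgeR adjusted p of up to 0.127. DESeq2 gave no adjusted p for this difference, which leaves 17 alternatives. Of 7 ligand pseudogenes listed, MICF had no row, 4 were below the filter, and MICE and RAET1K were tested and passed with neither siRNA.

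The order of the mean levels, a comparison between genes on the FPKM scale, differed between control and siRNA libraries. In the control libraries MICB (13.2 ± 0.748, SD, n = 3) and ULBP2 (12.0 ± 1.38) had overlapping ranges, followed by MICA (7.70 ± 0.243), ULBP3 (3.88 ± 0.363) and ULBP1 (1.42 ± 0.156), each of which was separate from its neighbours. With siRNA.1 MICB (14.4 ± 0.80) was separate from the rest, MICA (10.3 ± 0.875) and ULBP2 (8.80 ± 0.777) overlapped, and ULBP3 (3.36 ± 0.0907) and ULBP1 (2.04 ± 0.176) followed. With siRNA.2 the order was the same, with MICB at 14.7 ± 0.257, MICA at 10.6 ± 0.336, ULBP2 at 9.52 ± 1.12, ULBP3 at 4.49 ± 0.605 and ULBP1 at 2.09 ± 0.219 FPKM. Among the 28065 genes with a mean above 0 FPKM in the control libraries, 87.3% were lower than MICB, 86.2% lower than ULBP2, 80.2% lower than MICA, 71.0% lower than ULBP3 and 59.2% lower than ULBP1.

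This order, and its difference between the groups, depended on the length by which counts were divided. The deposited exonic length of MICA was 3851 nt, whereas its canonical transcript has 1370 nt. For MICB the lengths were 2798 and 2416 nt, and for ULBP1, ULBP2 and ULBP3 both lengths were equal, at 3211, 1335 and 3111 nt. Divided by the canonical length, a choice made after the data were seen, MICA led in every group, at 21.6 ± 0.682 in the control libraries, 28.9 ± 2.46 under siRNA.1 and 29.7 ± 0.943 with siRNA.2 (SD, n = 3), before MICB at 15.2 ± 0.866, 16.7 ± 0.927 and 17.0 ± 0.298. ULBP2, ULBP3 and ULBP1 followed in that order, so by canonical length the order of the means was the same in every group. Which transcripts TE13 cells carry was not measured here. The fold changes of a gene do not depend on this length.

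The sum of the 5 members was 38.31, 39.58 and 36.64 FPKM in the control libraries, 39.52, 38.26 and 39.04 FPKM with siRNA.1, and 43.09, 40.3 and 40.78 FPKM with siRNA.2. The siRNA.1 libraries fell within the control range, while the siRNA.2 libraries were all above it. The share of ULBP2 in this sum was 31.4 ± 2.81% with control siRNA, 22.6 ± 1.64% under siRNA.1 and 23.0 ± 1.94% with siRNA.2 (SD, n = 3), and that of MICA 20.2 ± 1.05%, 26.5 ± 2.55% and 25.6 ± 1.36%. MICB held 34.5% to 37.1% on average in each group, ULBP3 8.64% to 10.8% and ULBP1 3.72% to 5.25%. With canonical lengths the share of MICA was 39.9%, 48.3% and 47.3%, and that of ULBP2 22.1%, 14.7% and 15.1%, so the direction of both shifts was the same. The sum, however, depended on the length, since with canonical lengths it was 53.8, 56.0 and 52.8 in the control libraries, 60.5, 60.6 and 58.5 with siRNA.1, and 64.6, 62.4 and 61.7 with siRNA.2, so that every siRNA library, those of siRNA.1 included, was above every control library.

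**Figure D3:**
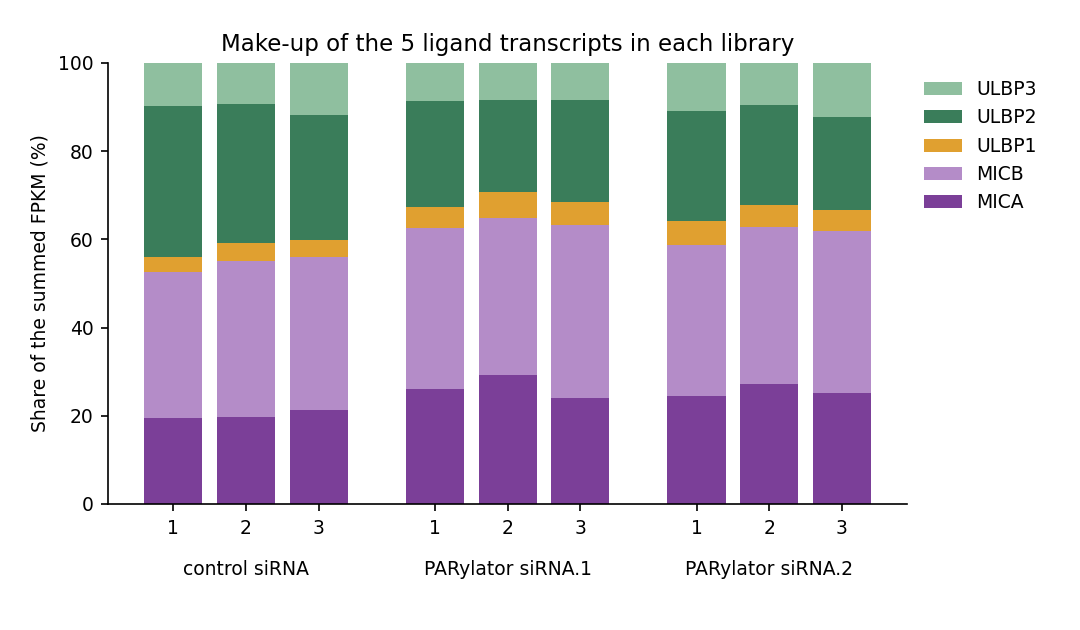
Share of each member in the summed FPKM of the 5 members (vertical axis, percent) in each of the 9 libraries. The ULBP2 band takes 28.5% to 34.2% of the sum in the control libraries and 20.8% to 25.0% in the siRNA libraries, and the MICA band 19.4% to 21.4% and 24.1% to 29.2%.

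The genes most like each member were ranked by Pearson's r of log2(FPKM + 0.1) across the 9 libraries. The libraries fall into 3 groups, so these values, given as a description, largely restate the group differences. Of 11833 genes searched, NOMO1 (r = 0.988), LOXL3 and SUPV3L1 (both 0.985) were most like MICA, and TMEM128 (0.972) and TAF1D (0.968) most like MICB. CCT6P3 (0.975), FAN1 (0.974) and ZNF526 (0.97) were most like ULBP1, E2F5 (0.957), POLDIP3 (0.949) and ADA (0.944) most like ULBP2, and SULF2 (0.936), SNORD67 (0.92) and VPS52 (0.917) most like ULBP3.

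The receptor itself was close to the limit of detection. KLRK1, which encodes NKG2D, and its signalling adaptors HCST (DAP10) and TYROBP (DAP12) together came to between 0.21 and 0.76 FPKM in any library, which leaves the ligands as the side of the interaction that these libraries describe.

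Enzymes that release the ligands from the membrane were called in both directions with each siRNA. The list also holds their inhibitors, so its counts and medians do not describe the enzymes alone. Of 10 shedding enzymes and inhibitors, 3 were higher and 2 lower with siRNA.1, and 3 were higher and 3 lower with siRNA.2, with median log2 fold changes of -0.01 and -0.09. For this and the lists that follow, the shares of all rows were 15.0% higher and 15.2% lower with siRNA.1. With siRNA.2 they were 15.8% and 15.1%. The sheddase ADAM10 fell slightly with siRNA.1 (-0.15, edgeR adjusted p = 0.00063) but not with siRNA.2 (-0.02, edgeR adjusted p = 0.83), ADAM17 passed with neither (-0.14 with each, edgeR adjusted p = 0.0747 and 0.0655), and ADAM9 fell with siRNA.2 (-0.34, edgeR adjusted p = 5.71e-15) beside a log2 fold change of -0.02 for siRNA.1 (edgeR adjusted p = 0.807). MMP14, a membrane protease that can cleave MICA, fell with both (-0.34 and -0.12), the second lost without control replicate 1 (-0.092) and with limma, while MMP9, a secreted gelatinase, rose (0.43 and 1.26). TIMP3, an inhibitor of ADAM17 and of metalloproteinases, rose by 0.61 and 1.45 on the log2 scale. PDIA6 (ERp5), a disulphide isomerase needed for MICA shedding, rose with siRNA.2 (0.34, edgeR adjusted p = 2.26e-14) and had a log2 fold change of 0.09 for siRNA.1 (edgeR adjusted p = 0.109).

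Genes of the integrated stress response, the pathway in which ATF4 acts, had the highest share of genes called higher among the groups listed here. The list holds ATF4 together with other genes of the pathway, and a part of any of them in the changes of the ligands was not tested. Of 12 tested, 11 were higher under siRNA.1 and 12 with siRNA.2, with 0 lower and median log2 fold changes of 0.82 and 0.69 beside 0.00 for all rows. ATF4 itself rose by 0.25 under siRNA.1 and 0.36 with siRNA.2 on the log2 scale, from a control mean of 154 FPKM to means of 187 and 200 FPKM. DDIT3 (CHOP), a stress-induced transcription factor, rose by 1.23 and 1.11, and ATF3, another, by 1.31 and 1.00. SESN2 was the gene not called with siRNA.1 (0.22, edgeR adjusted p = 0.0591).

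Heat shock genes moved the other way. Of 9 heat shock factors and chaperones, 1 was higher and 7 lower with siRNA.1, and 1 was higher and 5 lower with siRNA.2. The inducible chaperone HSPA1B fell by 0.37 under siRNA.1 and 0.38 with siRNA.2 on the log2 scale, and its co-chaperone DNAJB1 by 0.29 and 0.40. The gene that rose was HSF1, the factor that binds heat shock elements (0.20 and 0.19, edgeR adjusted p = 0.0021 and 0.0034), a call that was lost without siRNA.1 replicate 1 (0.116) and, with siRNA.2, with limma.

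The DNA damage checkpoint, a known route to NKG2D ligand induction through the kinases ATM and ATR, was represented by 8 genes. Of these, 1 was higher and 3 lower with siRNA.1, beside 15.0% and 15.2% of all rows. With siRNA.2, 0 were higher and 1 lower, beside 15.8% and 15.1%, and none was called with both. The gene lower with siRNA.2 was CHEK2, with means of 7.67 FPKM under control siRNA and 6.61 FPKM with siRNA.2, a call that was lost under some alternatives. ATM had log2 fold changes of -0.26 and 0.07, ATR of -0.16 and 0.02, and CHEK1 of -0.00 and 0.07, of which the decreases of ATM (edgeR adjusted p = 0.00078) and ATR (edgeR adjusted p = 0.025) with siRNA.1 passed. Both were lost with limma, and that of ATR also with DESeq2 and without control replicate 1 (-0.133), control replicate 2 (-0.142), siRNA.1 replicate 1 (-0.125) or siRNA.1 replicate 3 (-0.155). Activity of these kinases is set by phosphorylation, which RNA libraries do not measure. By Western blotting, the paper reported increased phosphorylation of ATM and CHK2 after PARylator knockdown. It also reported larger comet tail moments and more γH2AX foci, measures of DNA damage, in TE13 cells.

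Of 4 proliferation factors tied to ligand transcription, E2F1, E2F3 and MYC were higher with both siRNAs and 0 were lower. MYC rose by 0.85 and 0.83 on the log2 scale, from 45.1 FPKM with control siRNA to 82.8 and 80.7 FPKM, and E2F1 by 0.42 and 0.37. The increase of E2F3 with siRNA.1 (0.29) was lost without siRNA.1 replicate 3 (0.179). Of 9 genes of the TGF-beta pathway, which lowers NKG2D ligands and the receptor, 0 were higher and 6 lower with siRNA.1, and 1 was higher and 5 lower with siRNA.2. The ligand TGFB2 fell by 0.59 and 0.70 and the receptor TGFBR1 by 0.58 and 0.59, whereas TGFB1 had log2 fold changes of -0.01 and 0.14 and passed with neither siRNA.

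Repressors of ligand expression were also listed. Of 7 epigenetic repressors, 1 was higher and 2 lower with siRNA.1, and 1 was higher and 0 lower with siRNA.2. Of all rows, 15.0% were higher and 15.2% lower with siRNA.1, and 15.8% and 15.1% with siRNA.2. The gene higher with both was EZH2, a histone methyltransferase (0.24 and 0.46). HDAC3, a histone deacetylase known to repress ULBP genes, had log2 fold changes of -0.21 and -0.14, of which the first passed (edgeR adjusted p = 0.035) and was lost with DESeq2, with limma and without control replicate 2 (-0.126), siRNA.1 replicate 1 (-0.180) or siRNA.1 replicate 3 (-0.173). Of 5 microRNA and RNA-binding regulators, 3 were higher and 0 lower with siRNA.1, and 4 were higher and 1 lower with siRNA.2. IGF2BP3, an RNA-binding protein known to lower ULBP2 and MICB transcripts, rose by 0.55 under siRNA.1 and 0.39 with siRNA.2 on the log2 scale, and the related IGF2BP2 by 0.37 and 0.24.

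**Figure D4:**
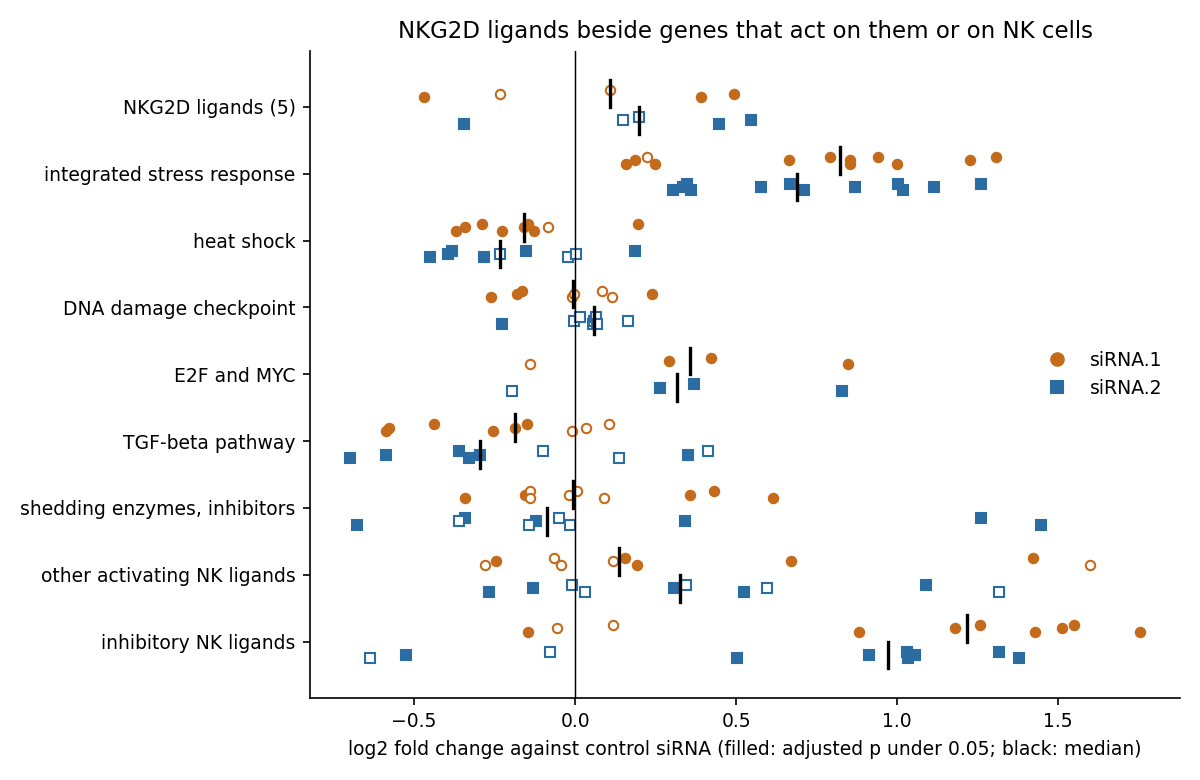
Log2 fold change against control siRNA (horizontal axis) of each tested gene in the 5 members and in 8 groups of genes listed for a link to them or to NK cells, for siRNA.1 (circles) and siRNA.2 (squares), with the median of each group as a black line. An action of these genes on the members was not tested. Integrated stress response genes and ligands of inhibitory NK receptors lie mostly to the right of 0, with medians of 0.82 and 1.22 for siRNA.1, and heat shock genes mostly to the left.

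Ligands for other NK cell receptors provide the context in which NKG2D ligands are read. Of 10 tested ligands of other activating receptors, 4 were higher and 1 lower with siRNA.1, and 3 were higher and 2 lower with siRNA.2. The shares of all rows were 15.0% and 15.2% with siRNA.1, and 15.8% and 15.1% with siRNA.2. NCR3LG1 (B7-H6), the ligand of NKp30, rose by 1.42 and 1.09 on the log2 scale, from 1.56 to 4.24 and 3.32 FPKM, and PVR, a ligand of DNAM-1, by 0.67 and 0.52, while BAG6, which also engages NKp30, fell by 0.25 and 0.27. NECTIN2, also a ligand of DNAM-1, was called higher with siRNA.1 and lower with siRNA.2. Its means were 37.3 FPKM with control siRNA, 43.4 FPKM with siRNA.1 and 34.3 FPKM with siRNA.2. Of 10 tested ligands of inhibitory receptors, counting B2M with the HLA class I genes it pairs with, 7 were higher and 1 lower with each siRNA, and the median log2 fold change was 1.22 under siRNA.1 and 0.97 with siRNA.2. HLA-B, a ligand of killer immunoglobulin-like receptors and a neighbour of MICA, rose by 1.55 and 1.32, CEACAM1 by 1.75 and 1.38, and HLA-E, the ligand of NKG2A, by 0.88 and 0.50. CDH1, a ligand of KLRG1, fell by 0.15 and 0.53, the first lost with limma. MICA and ULBP1 thus rose by smaller amounts than HLA-B in the same libraries.

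Of 56 other rows within 100 kb of a member, 20 were tested, of which 3 were higher and 3 lower with siRNA.1, and 4 were higher and 3 lower with siRNA.2, shares close to those of all rows given above. Near MICA and MICB, HCP5, a long noncoding RNA of the MHC region, rose by 1.89 and 1.43 on the log2 scale and NFKBIL1 by 0.51 and 0.35, whereas the cytokine gene LTB fell by 1.58 and 1.05. Near the ULBP genes, LRP11 fell by 0.59 and 0.46 and PPP1R14C by 0.56 and 0.65, and RAET1L was the only row to rise, with siRNA.2.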

How the data were processed

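RNA-seq of 9 TE13 libraries was analysed, grouped by their labels. The study's methods name FastQC for quality control, STAR for alignment to GRCh38 and featureCounts, also in the submitters' processing notes, for counting reads of poly(A)+ libraries per gene. Versions, annotation, strand setting and read length are not given in the sources used here. The authors deposited raw counts per gene, not normalized, and FPKM, which equals the deposited count divided by the deposited exonic length and the library total in 100% of values within 0.0051.

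Counts of the 21395 rows with a mean of at least 0.1 FPKM were tested with edgeR 4.0.16 (R 4.3.3), quasi-likelihood with TMM scaling, in a single fit of the 3 groups without covariates, with Benjamini-Hochberg adjustment over all rows and a threshold of 0.05. Changes given on the log2 scale are estimates of this fit unless another tool or a left-out library is named. Correlations between genes used log2(FPKM + 0.1). The members, the 16 gene lists, the tests and the rule for named genes were chosen with earlier results of these data known. All members and the 3 further ligands are named. Of each list up to 2 genes a direction are named, those past the threshold with both siRNAs with the largest mean change, as well as genes whose role bears on the ligands. NECTIN2 is named because its calls went in opposite directions. Of each member the 3 most correlated genes are named, except 1 gene that is not reported here.

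Alternatives were RLE and upper-quartile factors, other filters, DESeq2 1.42.0 (the tool of the methods), limma 3.58.1 on log2(FPKM + 0.1) and log2(FPKM + 1), a replicate block, only the 2 groups compared, and each library left out in turn. Libraries of a group differed by more than sampling noise (chi-square per degree of freedom 2.76 to 4.62), so each counted as 1 sample. Sequences are from RefSeq (GRCh38.p14) and transcripts from GENCODE, aligned with Biopython 1.88.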

Additional observations from a re-analysis of the deposited data

Results flagged for a closer look

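ULBP3 and RAET1L were singled out because the effects of both siRNAs differed in the direct test of siRNA.2 against siRNA.1. For ULBP3 the log2 difference was 0.433 (standard error 0.129, edgeR adjusted p = 0.00961), with all 3 siRNA.2 libraries above all 3 siRNA.1 libraries, while neither siRNA passed the test against control. For RAET1L the log2 difference was 1.075 (standard error 0.342, edgeR adjusted p = 0.0182), at 38 to 58 counts with siRNA.2 and 16 to 24 with siRNA.1. RAET1L shares sequence with ULBP2, and 11.79% of the 100-base windows of its canonical transcript occurred unchanged in ULBP2 or RAET1G transcripts. The part of shared reads in its value was not tested.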

How the results depend on the processing

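Of 270 values of the 5 members under 18 alternatives in 3 comparisons, 251 kept their direction and their side of the threshold, and those that did not are as follows, the cause not being tested. With each library left out in turn, the log2 fold change of ULBP1 ranged from 0.436 to 0.585 for siRNA.1 and from 0.468 to 0.635 for siRNA.2, that of ULBP2 with siRNA.2 from -0.438 to -0.279, and that of ULBP3 between the siRNAs from 0.337 to 0.528, each losing its call without the libraries named above. In the same way the uncalled differences between the siRNAs crossed 0 for MICA (-0.003 to 0.11), MICB (-0.002 to 0.085) and ULBP1 (-0.027 to 0.11). Members called between the siRNAs numbered 0 to 1. With limma on log2(FPKM + 0.1) and log2(FPKM + 1), ULBP2 with siRNA.2 came to -0.332 and -0.306 and ULBP3 between the siRNAs to 0.397 and 0.325, none of which passed, so that 0 members were called between the siRNAs with either. For RAET1L between the siRNAs limma gave 0.967 and 0.592, neither of which passed, and DESeq2 gave no adjusted p. Of 179 calls of listed genes, tried under the same alternatives after the data were seen, 128 held under all that gave an adjusted p and 0 reversed.

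Libraries with the same replicate number did not deviate together (9 correlations of deviations from the group mean between -0.146 and 0.069), so the numbers were not taken to pair libraries. With a replicate block, the change of MICA was 0.389 for siRNA.1 and 0.446 for siRNA.2, and no call of a member changed. Depth limits RAET1E, RAET1G, RAET1L and LINC00885, with fewer than 60 counts in any library.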
